A study of Mus musculus with 22 samples.

Results

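Cd36-positive mature olfactory sensory neurons are a small set of mature olfactory sensory neurons (mOSNs) whose single-cell profile holds mRNA of Cd36, a scavenger receptor that binds long-chain fatty acids and other lipids. They were chosen by measured values: 25185 cells with more than 500 genes, more than 1500 unique molecular identifiers (UMIs, counted mRNA molecules) and under 20% mitochondrial UMIs were kept from 8 libraries. A cell was called an mOSN when it held at least 5 UMIs of Omp, more of Omp than of Gap43 and Gng8 together, and few UMIs of basal-cell, supporting-cell and neutrophil genes. Of 9133 mOSNs, 302 had at least 2 Cd36 UMIs and make up the set, 381 had exactly 1, and the 8450 with none (Cd36-zero mOSNs) served as the reference.

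The series asks what loss of Upf3b, a gene of the nonsense-mediated RNA decay pathway, does in the olfactory epithelium (OE) of the mouse. Each scRNA-seq library came from the dissociated OE of 1 male C57BL/6J mouse aged 7 to 8 weeks, 4 of them Upf3b+/y (WT1 to WT4) and 4 Upf3b-/y (null, KO1 to KO4), and dead cells were removed beforehand. Bulk RNA-seq was made from mOSNs sorted by Omp-Cre;R26-eYFP fluorescence (4 WT and 4 null samples), and RiboTag RNA by pulling tagged ribosomes of Omp-Cre;RiboTag mice from whole OE (3 WT and 3 null samples), each sample pooling 3 males aged 8 to 9 weeks on the same strain background. In both bulk designs Omp-Cre marks mOSNs of every kind, so neither isolates the Cd36-positive cells.

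An mOSN normally transcribes 1 odorant receptor gene (Olfr) from a very large family, and the receptor it uses goes with the place of the cell in the epithelium and the target of its axon in the olfactory bulb. Odorants act through the receptor on the G protein made with Gnal, the adenylyl cyclase Adcy3 and the cyclic nucleotide-gated channel built from Cnga2, Cnga4 and Cngb1. Cd36 is known as a fatty acid transporter and co-receptor in muscle, fat, endothelium and taste cells, and in the OE its mRNA marks a scattered subset of mOSNs.

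The libraries differed before any comparison. Correlated over genes, the Cd36-zero sums of WT3, WT4 and KO4 had r of 0.929 to 0.961 with each other, whereas r between them and the other 5 libraries was 0.733 to 0.892. Among the other 5, r was 0.85 to 0.964, which overlaps the range between the sets. WT3 had a median mitochondrial share of 16.2% in its Cd36-zero mOSNs, compared with 5.26% to 8.08% in the other 7 mice. KO3 carried erythroid genes, mostly hemoglobin, at 206000 CPM (counts per 1000000 UMIs of the class) in its Cd36-zero mOSNs, where WT2, the lowest of the 8 libraries, had 63.9 CPM. Pairs of libraries shared between 0 and 55 cell barcodes, and 8 of the 302 Cd36-positive cells had a barcode that was also kept in another library. The deleted gene followed the genotype labels. Upf3b held 6, 5, 14 and 8 UMIs in the Cd36-positive cells of WT1 to WT4, and 0, 0, 0 and 1 in those of KO1 to KO4. In Cd36-zero mOSNs it was the 1 gene of 11133 tested (0.00898%) that passed for genotype, and its log2 fold change, null against WT, was -6.94 (SE 0.68, adjusted p = 0.0239, edgeR's quasi-likelihood test with Benjamini-Hochberg adjustment).

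Cd36-positive cells were present in every mouse. They were 4.81%, 2.07%, 3.52% and 2.80% of mOSNs in WT1 to WT4 (40 of 831, 13 of 628, 49 of 1391 and 27 of 964 cells). In KO1 to KO4 they were 2.52%, 3.07%, 4.77% and 3.77% (61 of 2425, 22 of 717, 38 of 796 and 52 of 1381 cells). The genotypes overlapped throughout, with the highest and the lowest mouse both WT. The 95% exact binomial (Clopper-Pearson) intervals, which cover counting error only, ran from 1.11% to 3.51% in WT2 and from 3.46% to 6.50% in WT1. The mean share was 3.30% ± 1.17 (SD, n = 4) in WT and 3.53% ± 0.974 (SD, n = 4) in null mice. The difference of 0.229 percentage points had p = 0.829 (exact two-sided permutation test over mice, for which 0.0286 is the smallest p possible), with an interval from -2.30 to 2.70 points obtained by inverting that test at 97.1% confidence. Its sign was not stable: counting cells with at least 1 Cd36 UMI gave -0.434 points, and with every cell first thinned to the same depth, 1500 or 3000 UMIs, it was -1.99 (5.69% in WT and 3.70% in null mice, exact p = 0.143) and -1.05 points (exact p = 0.686).

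**Figure D1:**
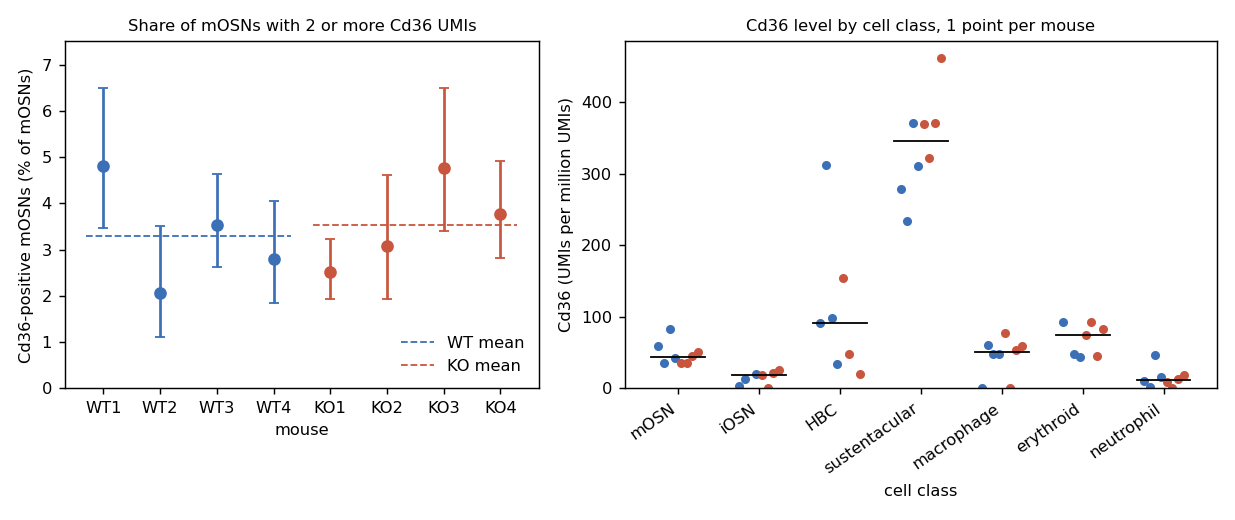
Left, percentage of mOSNs with at least 2 Cd36 UMIs in each mouse, with 95% exact binomial intervals and dashed lines at the genotype means; the shares run from 2.07% to 4.81% and the genotypes overlap. Right, Cd36 CPM by cell class, 1 point per mouse with at least 10 cells of the class (WT blue, KO red) and a line at the median; sustentacular cells have the highest median.

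Most Cd36-positive cells held few Cd36 molecules. Of the 302, 121 had 2 UMIs, 83 had 3 and 52 had 4, and the highest count in a cell was 11. The mOSNs gave 24.8% of all Cd36 UMIs of the kept cells (15.8% to 67.2% by mouse). The Cd36-positive cells, which were chosen for these UMIs, gave 17.9% (11.9% to 60.2% by mouse). Over all mOSNs of a mouse the Cd36 level was 59.7, 35.1, 83.0 and 42.0 CPM in WT1 to WT4. It was 34.7, 35.6, 45.4 and 51.2 CPM in KO1 to KO4. The 2 genotypes overlapped, and only WT1 and WT3 lay above every null mouse. The means were 55.0 ± 21.4 and 41.7 ± 7.96 (SD, n = 4 each), with p = 0.343 for the difference of -13.2 (exact two-sided permutation test, interval -48.3 to 16.1 at 97.1% confidence). WT3 set much of this difference, which was -3.87 without it (exact p = 0.714).

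mOSNs were not the cells richest in Cd36. Sustentacular cells, the supporting cells of the epithelium, held at least 2 Cd36 UMIs in 50.3% of 676 cells, and 23.8% of all Cd36 UMIs. Immature OSNs did so in 1.39% of 1656 cells, of which 989 came from KO1, compared with 3.31% of mOSNs. By mouse these shares were 0% to 3.38% and 2.07% to 4.81%, so the ranges overlapped. Neutrophils did so in 0.448% of 2676 cells (0.232% to 0.782%) at a median depth close to that of mOSNs, 2800 against 2850 UMIs. In WT3, with 17 neutrophils, 1 of them (5.88%) did so, against 3.52% of mOSNs. Other non-neuronal classes were nearer to or above the mOSNs, with 3.09% of macrophages (pooled interval 1.81% to 4.90%), 4.35% of erythroid cells and 8.27% of horizontal basal cells. In mice with at least 10 cells of the class, these shares were 0% to 6.67%, 1.95% to 8% and 0% to 30%. How much of the Cd36 in single mOSNs came from free RNA was not tested.

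Tshz1, a zinc-finger transcription factor, and Tppp3, a microtubule-binding protein, were given as markers of these cells along with Omp and Cd36, so their levels are described without a test. Gene levels from here on are CPM of the summed counts of a class in a mouse, normalized by the trimmed mean of M values (TMM). The marker sums of cell types given further below are an exception, being CPM without TMM. Tshz1 was at 770, 675, 418 and 1110 CPM in the Cd36-positive cells of WT1 to WT4 and at 508, 827, 540 and 845 CPM in those of KO1 to KO4. In the Cd36-zero mOSNs of the same mice it lay between 36.5 and 144 CPM, below every Cd36-positive value. Tppp3 averaged 450 ± 282 CPM (SD, n = 8) in Cd36-positive and 58.5 ± 23.8 CPM in Cd36-zero cells. It was higher in Cd36-positive cells of all 8 mice, but WT3, at 82.5 CPM, fell within the range of the Cd36-zero cells. Omp, in contrast, was at 4130 ± 959 CPM in Cd36-positive and 4650 ± 1030 CPM in Cd36-zero cells, and was higher in the Cd36-positive cells of 1 mouse.

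The threshold did not divide cells sharply. Tshz1 was detected in 18.6% of the cells with no Cd36 UMI, in 41.2% of those with 1, in 63.6% of those with 2 and in 79.6% of those with 3 or more. Tppp3 was detected in 10.2%, 21.3%, 47.1% and 53.0% of the same 4 sets. Over all mice together the cells just outside the threshold were thus intermediate for both markers, but not in every mouse. In WT1, Tshz1 was detected in 81.2% and Tppp3 in 75% of the 16 cells with 1 UMI, against 80% and 67.5% of the Cd36-positive cells, and in WT4 Tppp3 was detected in 8.16% of the cells with 1 UMI, against 11.4% of the Cd36-zero cells. WT3 held 120 of the 381 cells with 1 UMI, and in it Tshz1 was detected in 49.0% of Cd36-positive against 28.6% of Cd36-zero cells, a smaller gap than in any other mouse. The median depth was 2271 to 4864.5 UMIs per Cd36-positive cell and 1942 to 3634 per Cd36-zero cell, and it was higher in the Cd36-positive cells of every mouse except WT1 (2392.5 against 2411).

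The receptor choice of the Cd36-positive cells was narrow and clustered on chromosome 10. A dominant receptor, the Olfr gene with at least 3 UMIs and at least 2 times the next Olfr gene, could be called in 115 of the 302 Cd36-positive cells and in 2664 of the 8450 Cd36-zero cells. The Cd36-positive cells used 54 receptors, and 11 of these covered 50% of the cells. The Cd36-zero cells used 523, and 85 were needed to cover 50%. The 10 commonest receptors accounted for 49.6% and 13.2% of the cells, respectively, in samples of very unequal size.

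Of the 115 Cd36-positive cells with a dominant receptor, 65 (56.5%) used one from chromosome 10, compared with 134 of 2664 (5.03%) of Cd36-zero cells. The pattern was noticed in these data and is given without a test. By mouse the share among Cd36-positive cells was 64.7%, 50.0%, 54.5% and 66.7% in WT1 to WT4. It was 61.5%, 70%, 50.0% and 40.0% in KO1 to KO4. Among Cd36-zero cells it lay between 3.53% and 8.13%, so the classes did not overlap in the 8 mice of either genotype. Without WT3 the shares were 56.7% and 5.05%. Read the other way, 28.9% of the 225 mOSNs with a chromosome 10 receptor were Cd36-positive (17.6% to 37.9% by mouse), against 1.89% of the 2652 with another receptor (1.01% to 3.81%). Chromosomes 2 and 7, with large receptor clusters, supplied 16.5% and 14.8% of the Cd36-positive cells and 28.9% and 17.3% of the Cd36-zero cells. Chromosomes 11 and 9 supplied 0 of the 115 Cd36-positive cells, and 6.57% and 7.47% of the Cd36-zero cells. A count of 0 allows a share of up to about 2.61%, taken as 3 over the 115 cells pooled over mice. That approximate limit covers counting error only and is not an exact interval.

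Within the cluster the Cd36-positive share differed from one receptor to the next. Positions are gene spans in GRCm38 (GENCODE vM21). Cd36-positive cells used 24 of the 40 chromosome 10 receptors seen in any mOSN, all between chr10:129160003 and 130076909. Olfr781 (chr10:129328854-129333844) was dominant in 6 mOSNs, and all 6 were Cd36-positive, in 4 mice. Olfr771 (chr10:129160003-129164751) had 8 Cd36-positive cells of 10, Olfr788 (chr10:129470998-129476618) 7 of 11, and Olfr805 (chr10:129721221-129729375) 5 of 7. Olfr816 and Olfr786 had 5 of 11 and 5 of 12, and Olfr772 had 4 of 4. Olfr794 lies between these genes and was dominant in 40 mOSNs of all 8 mice, none of them Cd36-positive (0 of 40; the 95% exact interval reaches 8.81%). Olfr767 toward one end (0 of 9) and Olfr825, Olfr826 and Olfr827 toward the other (0 of 6, 0 of 8 and 0 of 9) had no Cd36-positive cell either. Olfr794, these 4, Olfr798 and Olfr822 were chosen after their values were seen. These last intervals reach 33.6%, 45.9%, 36.9% and 33.6%, so a share like that of Olfr822 (1 of 5) could not be told from 0 at this depth.

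**Figure D2:**
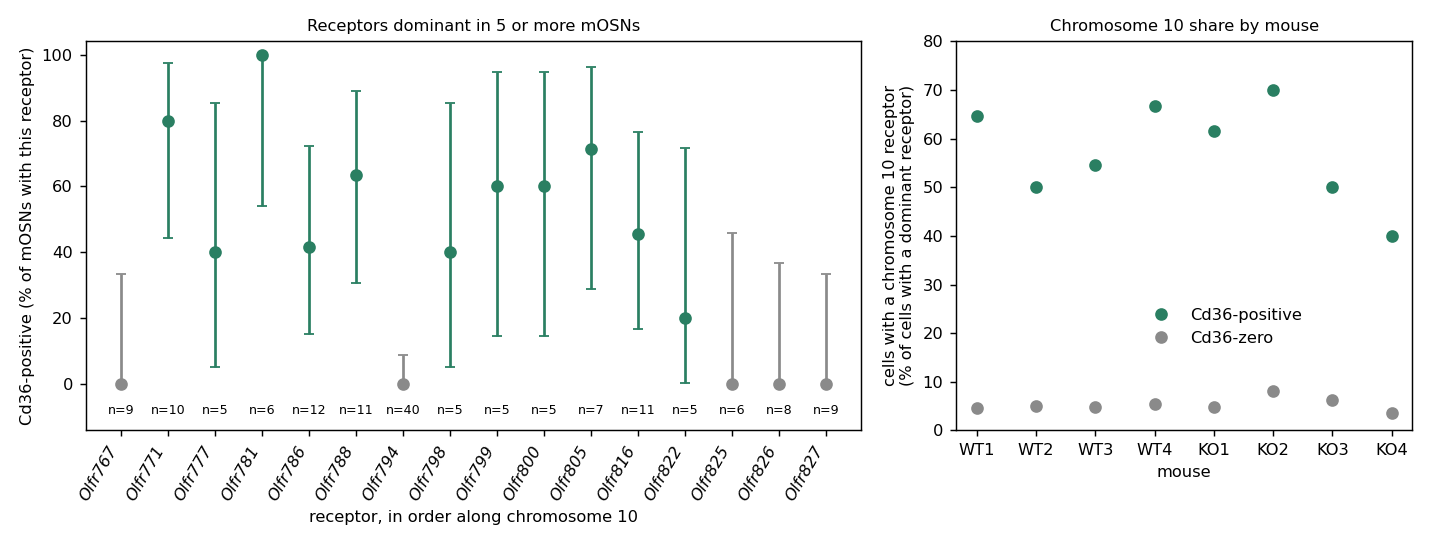
Left, percentage of mOSNs that are Cd36-positive for each receptor of the Olfr767 to Olfr827 stretch that is dominant in at least 5 mOSNs, in order along chromosome 10, with 95% exact binomial intervals and the number of mOSNs below (gray, no Cd36-positive cell); Olfr794 is at 0 of 40, next to Olfr788 at 63.6% and Olfr798 at 40.0%. Right, percentage of cells with a dominant receptor whose receptor is on chromosome 10, by mouse; Cd36-positive cells lie at 40.0% to 70% and Cd36-zero cells at 3.53% to 8.13%.

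Receptors elsewhere in the genome contributed fewer cells. Olfr360 (chr2:37065746-37069651) was dominant in 8 mOSNs, of which 7 were Cd36-positive, and Olfr665 (chr7:104878031-104882906) in 13, of which 7 were. Olfr303, also on chromosome 7, had 3 of 3. Of the 77 receptors dominant in at least 10 mOSNs, 68 had no Cd36-positive cell. Of the other 9, Olfr771, Olfr788, Olfr665, Olfr816 and Olfr786 had shares of 41.7% to 80%. The rest were Olfr99 at 9.09%, Olfr1426 at 5.88%, Olfr1250 at 4.55% and Olfr536 at 3.33%, each with 1 Cd36-positive cell. Olfr360 and Olfr788 were picked in the WT mice alone, where 5 of 5 and 3 of 6 cells using them were Cd36-positive. Olfr771 and Olfr772, at 3 of 3 each, had fewer WT cells and were not picked. In the null mice 6 of 8 cells using Olfr360 or Olfr788 (75.0%, 95% exact interval 34.9% to 96.8%) were Cd36-positive, against 66 of 1755 (3.76%) using any other receptor. All 8 cells came from KO1 (4 of 6) and KO2 (2 of 2), and KO3 and KO4 had none. The interval covers counting error only, since cells of the same mouse are not replicates. It is no test over mice.

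Beyond receptors, the summed counts of Cd36-positive and Cd36-zero mOSNs were compared within each mouse. The Cd36-positive sums held 31988 to 215759 UMIs and the Cd36-zero sums 1533623 to 6503553. Of 10657 genes tested, 498 passed an adjusted p of 0.05 (edgeR's quasi-likelihood test, mouse as a block), which is 4.67%: 201 (1.89%) were higher and 297 (2.79%) lower in Cd36-positive cells. DESeq2 passed 229, of which 150 were higher and 79 lower, so the balance of the directions depends on the tool. Odorant and other chemoreceptor genes made up 50 of the 498, out of 75 tested. Of these, 18 were higher, 10 of them on chromosome 10, and 32 were lower. Outside the receptors, 35 genes were called higher and 154 lower with the same direction in all 8 mice. Of all tested genes, 0.478% were higher and 3.12% lower in all 8.

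The most constant of the higher genes was Cd55, the decay-accelerating factor that shields cells from complement (chr1:130439027-130462744). Cd55 was at 541, 650, 359 and 392 CPM in the Cd36-positive cells of WT1 to WT4 and at 538, 746, 338 and 418 CPM in those of KO1 to KO4. In Cd36-zero mOSNs it lay between 62.5 and 120 CPM, with no overlap. The log2 fold change was 2.31 (SE 0.11, adjusted p = 1.24e-92, edgeR). The protocadherin Pcdh11x, a cell adhesion protein encoded on the X chromosome, was at 41.2 CPM in WT3 and 109 to 238 CPM in the other 7 mice, against 16.2 to 39.7 CPM in Cd36-zero cells. Its log2 fold change was 2.38 (SE 0.19). Zfp407, a zinc-finger protein, was at 64.8 CPM in WT3 and 126 to 300 CPM elsewhere, against 7.95 to 37.0 CPM, a log2 fold change of 3.12 (SE 0.51, adjusted p = 0.0129, edgeR). Cdh26, another cadherin, had a log2 fold change of 2.02 (SE 0.30), but its classes overlapped, with 171 CPM in WT3 and 11.5 CPM in KO2.

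Several of the higher genes encode enzymes. Cyp4v3 (chr8:45304944-45333216), a cytochrome P450 that hydroxylates fatty acids, averaged 70.9 ± 39.6 CPM (SD, n = 8) against 10.9 ± 8.70 CPM in Cd36-zero cells, a log2 fold change of 2.57 (SE 0.30). Dio2, which converts thyroxine to the active thyroid hormone, ranged from 25.0 to 126 CPM against 4.79 to 19.6 CPM, without overlap, a log2 fold change of 2.42 (SE 0.29). Abcd2, a peroxisomal transporter of very long-chain fatty acids, was at 178 against 87.8 CPM on average, and Mboat1, an acyltransferase of lysophospholipids, had a log2 fold change of 1.38 (SE 0.24). Fam213a, a redox-active protein related to the peroxiredoxins, was the most abundant gene of this group. It ranged from 389 to 1150 CPM in Cd36-positive cells and from 228 to 487 CPM in Cd36-zero cells, with a log2 fold change of 1.15 (SE 0.09).

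Others were regulators and membrane-associated proteins. Rasl11a, a small GTPase of the Ras family, differed widely between mice: it was at 523, 425, 388 and 505 CPM in WT1, WT2, KO1 and KO2 and at 17.7 to 115 CPM in the other 4. The Cd36-zero cells were high in the same 4 mice, at 127 to 216 CPM, and at 14.9 to 37.2 CPM in the others, so the ranges of the classes overlapped. Within each mouse Rasl11a was higher in the Cd36-positive cells, as was required of a named gene (log2 fold change 1.45, SE 0.14). Olig1, a basic helix-loop-helix transcription factor, was at 58.9 to 448 CPM against 43.2 to 146 CPM (log2 fold change 1.17, SE 0.14). When cells with exactly 1 Cd36 UMI were compared with cells with none, Olig1 was at -0.01, and of the 14 named higher genes only Cd55 passed (log2 fold change 0.60, adjusted p = 0.0475, edgeR). Most of the others were far smaller there, such as Dio2 at 0.35, Pcdh11x at 0.52, Cyp4v3 at 0.58 and Abcd2 at 0.09. Clic6, an intracellular chloride channel protein, Frmd3, a FERM-domain protein, and Wdr66, a WD-repeat protein of motile cilia, had log2 fold changes of 1.49, 1.30 and 1.00, all with overlapping classes.

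The lower genes were led by several that Cd36-zero mOSNs expressed in every mouse. Faim2, an inhibitor of Fas-driven cell death, was at 202, 75.0, 188 and 91.7 CPM in the Cd36-positive cells of WT1 to WT4 and at 204, 149, 259 and 126 CPM in those of KO1 to KO4. It lay between 278 and 808 CPM in Cd36-zero cells, above every Cd36-positive value (log2 fold change -1.60, SE 0.11, adjusted p = 1.05e-39, edgeR). Cidea, a lipid-droplet protein, was at 0 to 29.9 CPM against 47.7 to 146 CPM, and Inpp5f, a phosphoinositide phosphatase, at 0 to 29.9 CPM against 31.2 to 81.0 CPM, both without overlap, from 21 and 18 UMIs in all Cd36-positive cells. Cadps2, which primes dense-core vesicles for release, fell by 1.80 on the log2 scale (SE 0.20). Mslnl, a relative of mesothelin, was at 0 to 124 CPM against 133 to 320 CPM (log2 fold change -2.33, SE 0.44, adjusted p = 0.0232, edgeR). Calb2, the calcium-binding protein calretinin, was at 9.17 to 225 CPM against 152 to 560 CPM (log2 fold change -2.02, SE 0.41). Its adjusted p was 0.0398 (edgeR), and it passed in 11 of 18 alternative analyses. Ptn, the secreted growth factor pleiotrophin, was close to the limit, at an adjusted p of 0.0486 (edgeR), and passed in 8 of 18 alternative analyses.

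The remaining lower genes also rest on few molecules. Rprm, an inhibitor of the cell cycle, Adam28, a metalloprotease, and Pcdh9, a protocadherin, had 11, 20 and 19 UMIs in all Cd36-positive cells together, with log2 fold changes of -2.27, -1.51 and -2.24. Of the 297 lower genes, 36 had fewer than 3 UMIs in all Cd36-positive cells, for which a fitted fold change has no firm size. In bulk and summed counts alike, fewer expressing cells and less RNA per cell cannot be told apart.

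**Figure D3:**
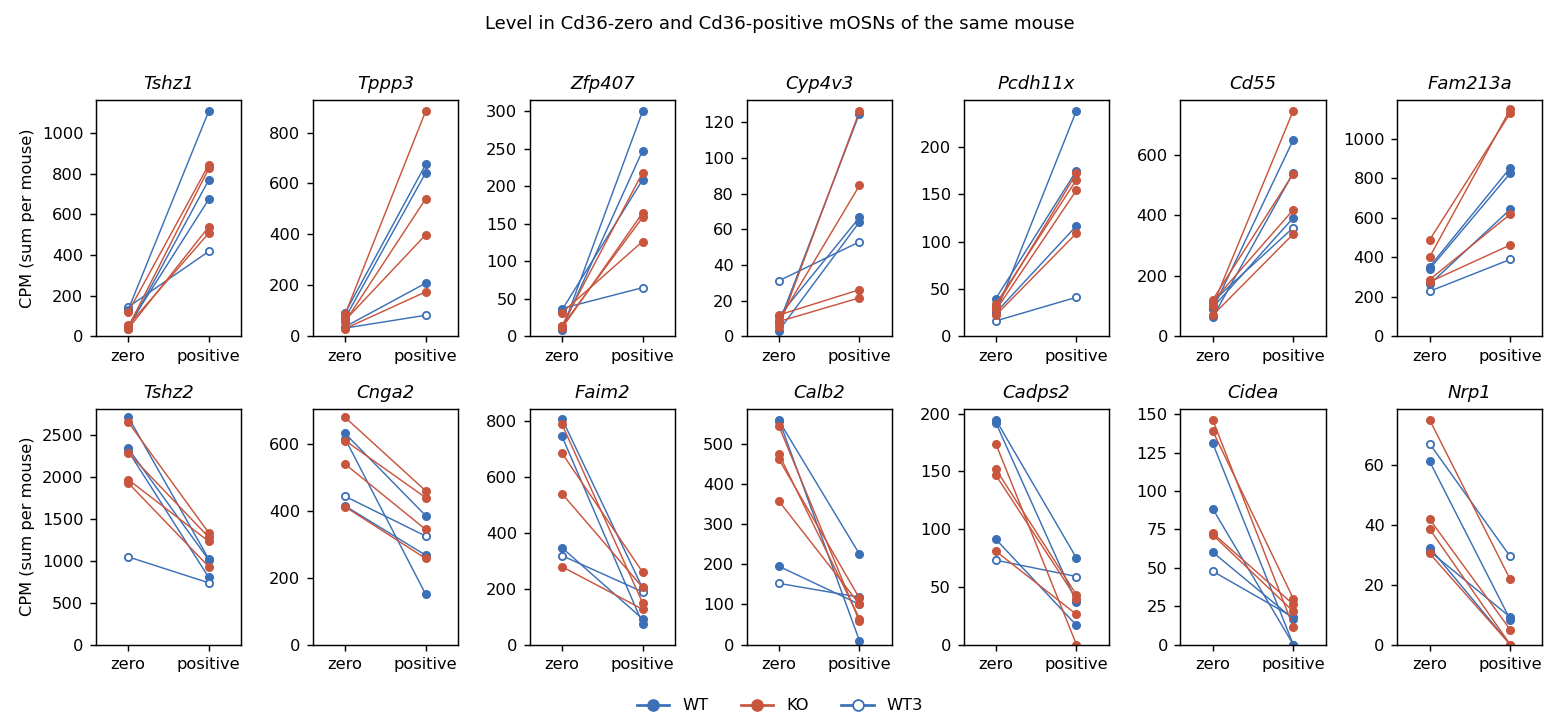
Normalized CPM of 14 genes in the summed Cd36-zero and Cd36-positive mOSNs of the same mouse, joined by a line (WT blue, KO red, WT3 open), on linear axes from 0. Tshz1 and Tppp3 are shown as markers given with the cells; Cd55 rises and Faim2 falls in 8 of 8 mice without overlap of the classes, and WT3 has the lowest Cd36-positive value of Zfp407 and Pcdh11x.

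Most tested genes of olfactory signal transduction were lower. Of 20 genes on the list, 18 were tested, 13 fell and 0 rose, where 2.79% of all genes tested fell and 1.89% rose. The median log2 fold change was -0.42, beside -0.08 over all genes tested. The same 2.79% and 1.89% stand beside the counts of each list that follows. Adcy3 was at 331 to 500 CPM in Cd36-positive and 500 to 746 CPM in Cd36-zero cells, the only one of the 13 whose classes did not overlap, though they met at 500 CPM (log2 fold change -0.62, SE 0.10). Cnga2 was at 385, 150, 324 and 267 CPM in WT1 to WT4 and at 344, 459, 439 and 257 CPM in KO1 to KO4. The same mice had 631, 615, 443 and 414 CPM and then 539, 679, 610 and 412 CPM of it in Cd36-zero cells, so it was lower in 8 of 8 (log2 fold change -0.67, SE 0.10). Stoml3, a stomatin-like protein of the cilia, averaged 3130 ± 761 against 5020 ± 1140 CPM, and Gnal 1040 ± 225 against 1600 ± 362 CPM (SD, n = 8). Ano2, the calcium-activated chloride channel, fell by 0.89 on the log2 scale (SE 0.14), and Gng13, Gnb1 and Ric8b, which belong to or assist the G protein, fell by 0.35 each. Cnga2, Stoml3, Adcy3 and Gnal passed the test in all 18 alternative analyses, whereas Ric8b (adjusted p = 0.0343, edgeR) passed in 9.

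Transcription regulators of mOSNs showed a contrast between paralogs of 1 family. Tshz2 was at 1020, 800, 736 and 1010 CPM in the Cd36-positive cells of WT1 to WT4 and at 1280, 1330, 1230 and 928 CPM in those of KO1 to KO4. It was at 2720, 2310, 1050 and 2340 CPM and at 2290, 2660, 1970 and 1930 CPM in the Cd36-zero cells of the same mice. Each mouse had less of it in Cd36-positive cells, WT3 by the smallest margin (log2 fold change -1.01, SE 0.08, adjusted p = 8.35e-34, edgeR), while Tshz1, a marker given with the cells, was higher in all 8. Their paralog Tshz3 was lower in 7 of 8 mice but did not pass (log2 fold change -0.58, SE 0.29, adjusted p = 0.336, edgeR). Of the 20 regulators listed, 17 were tested, 0 rose and 4 fell, the others being Ebf1, Lhx2 and Bcl11b with log2 fold changes of -0.36, -0.39 and -0.52. Bcl11b was near the limit (adjusted p = 0.0421, edgeR), lower in 6 of 8 mice, and passed in 7 of 18 alternative analyses.

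Of 12 genes that vary with zone or guide axons along the zonal axis, all were tested, 3 rose and 4 fell. Sema3a, a repellent axon guidance ligand, and Plxna1, a subunit of its receptor, were higher in 8 of 8 mice, by log2 fold changes of 1.25 (SE 0.37) and 0.68 (SE 0.15), and Sema3a passed in 9 of 17 alternative analyses. Nrp1, the neuropilin that binds Sema3a, was at 0 to 29.4 CPM against 30.5 to 75.2 CPM, with 13 UMIs in all Cd36-positive cells (log2 fold change -2.15, SE 0.35). Robo2, a receptor for Slit proteins, was higher in 7 of 8 mice (log2 fold change 0.50, SE 0.15) and passed in 10 of 18 alternative analyses. Ncam2, an adhesion molecule, was lower in 8 of 8 (log2 fold change -0.95, SE 0.23). Nqo1, an enzyme whose mRNA marks the dorsal zone, averaged 411 ± 346 CPM against 556 ± 449 CPM and was lower in 6 of 8 mice. The share of cells with an Nqo1 UMI was lower in only 5 of 8, and it was higher in the Cd36-positive cells of WT1 (45.0% against 34.1%), WT2 (23.1% against 15.4%) and KO1 (34.4% against 18.3%). Nrp2, a neuropilin of ventral neurons, was lower in 7 of 8. The calls for Nqo1 and Nrp2 were near the limit and passed in 6 and 3 of 18 alternative analyses.

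Genes used in sorting axons into glomeruli were mostly lower or did not pass: 17 of 22 were tested, 1 rose and 3 fell. The 1 was Pcdh7, near the limit (adjusted p = 0.0481, edgeR), which passed in 2 of 18 alternative analyses and was at -0.23 in cells with exactly 1 Cd36 UMI against none. The fall was clearest for Dlg2, a synaptic scaffold protein, at -1.09 on the log2 scale (SE 0.13), with Tenm2 and Cntn4 at -0.63 and -0.43. Of 12 genes that depend on neuronal activity, 10 were tested, 2 rose and 3 fell. The 2 were the immediate early genes Fos (log2 fold change 0.58, SE 0.16) and Junb (0.60, SE 0.18), higher in 5 of 8 mice each and passing in that direction in 9 and 8 of 18 alternative analyses, and the 3 were Pcp4l1, S100a5 and Lrrc3b. S100a5 was near the limit (adjusted p = 0.0494, edgeR), lower in 6 of 8 mice, and passed in 10 of 18 alternative analyses. Fos reached 440 CPM in 1 mouse, and its log2 fold change turned to -2.25 without cells that held a sustentacular marker UMI. All 14 microtubule genes were tested, 0 rose and 5 fell. These included the immature-neuron genes Dcx and Stmn1, which fell by 1.16 and 0.66 on the log2 scale, although with exactly 1 Cd36 UMI against none Stmn1 was at 0.09.

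Of 39 genes on the lipid-handling list, 28 were tested and 0 passed (edgeR), with a median log2 fold change of -0.01. Nearest to passing was Lpl, the lipoprotein lipase, at 1.74 (SE 0.58, adjusted p = 0.054, edgeR), from 22 UMIs in Cd36-positive cells. It was higher in 3 mice and lower in 4, and passed in 8 of 14 alternative analyses. The most abundant were Apoe, the lipid carrier, at 551 ± 716 against 690 ± 736 CPM, and Acsl6, a fatty acyl-CoA synthetase, at 375 ± 105 against 330 ± 77.1 CPM (SD, n = 8). Scarb1 and Scarb2, the relatives of Cd36, were at 7.89 and 26.7 CPM against 6.21 and 35.3 CPM. Genes of atypical sensory neurons, such as Gucy2d and Trpm5, were tested in 5 of 15 cases with 0 passing, and decay-pathway factors in 9 of 10 cases with 0 passing.

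**Figure D4:**
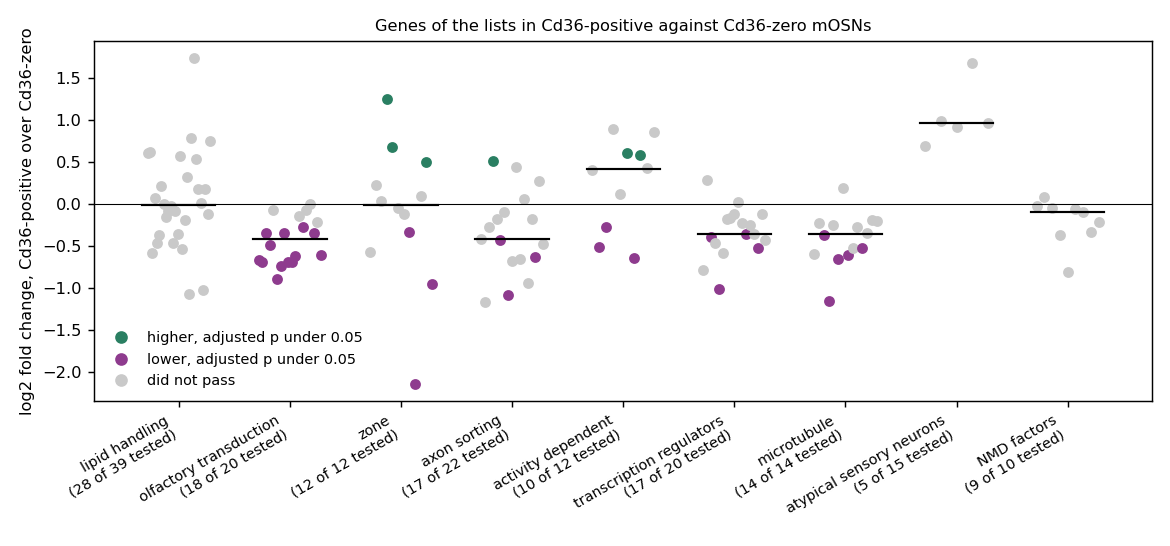
Log2 fold change, Cd36-positive over Cd36-zero mOSNs, of each tested gene of 9 gene lists, with the list median as a line (green, higher; purple, lower; gray, adjusted p of 0.05 or more). Olfactory transduction has 13 lower and 0 higher of 18 tested genes, and lipid handling 0 of 28.

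Marker genes of other cell types also differed between the classes, and their part in the results above was not tested beyond the counts given here. Sums are in CPM without TMM normalization. The summed mOSN markers were lower in Cd36-positive cells of all 8 mice, at 15200 ± 4570 against 19100 ± 4630 CPM (SD, n = 8), and Gng13 was the most abundant of the 6. The 5 immature OSN markers were also lower in all 8, at 448 ± 228 against 673 ± 247. The 5 sustentacular markers summed to 1190 ± 1130 against 667 ± 893 and were higher in 7 of 8 mice, with Cbr2 the most abundant at 734 UMIs. WT3 had the highest sums, 3460 and 2760, while the lowest was in the Cd36-positive cells of KO2 (35.4) and the lowest of the Cd36-zero sums was in WT2. The 6 endothelial markers summed to 36.8 ± 22.1 against 18.3 ± 6.64, higher in 6 of 8, and Pecam1 gave 32 UMIs. Mean CPM was higher in Cd36-positive cells for Pecam1, Egfl7 (6 UMIs) and Kdr (3 UMIs). It was lower for Cldn5 (2 UMIs), Cdh5 and Flt1 (0 UMIs each). Cdh5 and Flt1 had only 26 and 30 UMIs in the far larger Cd36-zero sums, so their counts of 0 say little. Erythroid genes, led by Hbb-bs, were at 57300 ± 104000 against 36600 ± 69600, higher in 6 of 8 mice, and gland genes, led by Bpifa1, at 2820 ± 3920 against 2290 ± 3240, higher in 5 of 8. Neutrophil and macrophage markers were higher in 2 of 8 each. Some of these sums hold genes that the mOSN gate limits in both classes: S100a8 and S100a9 lead the neutrophil sum, Cyp2g1, Cyp2a5 and Sec14l3 are 3 of the 5 sustentacular markers, and Gap43 and Gng8 are 2 of the 5 immature ones. Omp, which the gate requires, is in the mOSN sum. When cells with any sustentacular marker UMI were left out, 4 libraries remained with enough cells, and 125 genes passed. All 10 of the named lower genes and 9 of the 14 named higher genes were among those that passed, and Cdh26, Clic6, Mboat1, Frmd3 and Wdr66 were not (adjusted p of 0.37, 0.0619, 0.314, 0.0863 and 0.31, edgeR). The log2 fold changes of these 5 were then 1.87, 2.63, 1.17, 1.67 and 1.02, beside 2.02, 1.49, 1.38, 1.30 and 1.00 with all libraries.

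**Figure D5:**
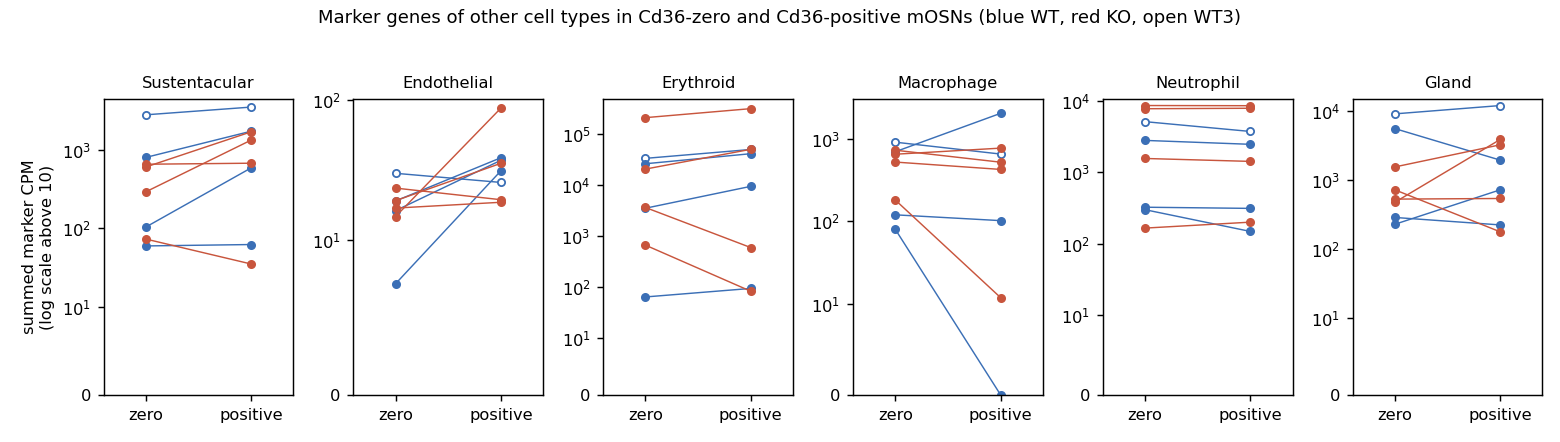
Summed CPM, without TMM normalization, of marker genes of 6 other cell types in the Cd36-zero and Cd36-positive mOSNs of each mouse (log scale above 10, WT blue, KO red, WT3 open). Sustentacular markers are higher in the Cd36-positive cells of 7 of 8 mice and neutrophil markers in 2 of 8.

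Within the Cd36-positive cells no gene passed for genotype: 0 of 2087 (0%) with edgeR's quasi-likelihood test, 0 with DESeq2, and 29 (1.39%) at an unadjusted p under 0.05. The lowest adjusted p was 0.998. Upf3b itself was not among the 2087 genes tested, so the 1 known genotype difference was outside this comparison. Of the 24 genes named from the class comparison, 11 had enough counts, with log2 fold changes from -0.85 (Abcd2) to 0.29 (Mboat1) and a median SE of 0.40. Cd55 was at -0.09 (SE 0.30), Fam213a at 0.11 (SE 0.30) and Pcdh11x at -0.01 (SE 0.40). Abcd2, at -0.85 (SE 0.37), had an unadjusted p of 0.0373 and an adjusted p of 0.998 (edgeR). Without the filter on low counts 8 genes passed.

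Whether the genotype effect itself differed between Cd36-positive and Cd36-zero mOSNs was tested as an interaction, which passed for 14 of 10657 genes (0.131%) with edgeR and for 0 with DESeq2. Of the 24 genes named from the class comparison only Pcdh9 was among the 14. Its Cd36-positive sums were 0 in the 4 WT mice and 14.9, 11.5, 28.8 and 47.9 CPM in KO1 to KO4, from 19 UMIs in 14 cells, and it passed in 3 of 12 alternative analyses.

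The bulk libraries give the same genes in mOSNs as a whole, where Cd36 had too few counts to be tested. Its transcript had counts of 0, 1, 0 and 3 in the WT and 0, 9, 11 and 5 in the null samples of sorted mOSNs, and 4 counts in 1 of the 6 RiboTag samples with 0 in the others. These came to at most 3.44 CPM in sorted mOSNs and 0.532 CPM in RiboTag RNA. Over all mOSNs of a mouse, scRNA-seq gave 34.7 to 83.0 CPM of Cd36. The reason for this gap was not tested. Tshz1 was at 40.4, 19.6, 69.4 and 40.2 CPM in WT and 22.5, 34.2, 30.6 and 19.3 CPM in null sorted mOSNs. The groups overlapped, and the difference did not pass (log2 fold change -0.64, SE 0.34, adjusted p = 0.399, edgeR). Of the named genes, 28 transcripts of 22 genes were tested in sorted mOSNs and 0 passed for genotype, where 26 of 11560 transcripts (0.225%) did so, a count that was 216 by DESeq2 and 12 to 433 without 1 sample (433 without KO replicate 1). Their log2 fold changes ran from -0.43 to 1.19, and 5 had an unadjusted p under 0.05, as did 14.6% of all transcripts. The 1.19 was a transcript of Inpp5f (SE 0.29, unadjusted p = 0.00171, adjusted p = 0.158, edgeR). Another Inpp5f transcript was at 0.33 (SE 0.35). The paper, which used DESeq2, lists Inpp5f as raised in null sorted mOSNs and among its high-confidence decay targets. In RiboTag RNA, 31 transcripts of 24 genes were tested and 0 passed, with 0 of all 14216 (0%), 202 (1.42%) at an unadjusted p under 0.05, and 16 by DESeq2. Upf3b itself did not pass in that test, at 157 to 199 CPM in WT and 0.283 to 3.06 CPM in null samples (log2 fold change -7.62, SE 0.73, adjusted p = 0.271, edgeR), so the absence of calls there says nothing about the named genes.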

How the data were processed

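The members, the gene lists and the tests were chosen with earlier results of these data known. The deposited single-cell counts are UMI counts per gene and barcode made by the authors with Cell Ranger against mm10. The deposited bulk counts are read counts per transcript, made by the authors with STAR 2.5.2b and featureCounts on GRCm38, with samples kept apart. Bulk totals were 1216784 to 3264827 (RNA-seq) and 2691023 to 7542665 (RiboTag) counts per sample. Transcripts were matched to GENCODE vM21: 22646 of 23010 had a gene.

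Further limits of the mOSN gate were Krt5+Krt14+Krt15 under 3 UMIs, Cyp2g1+Cyp2a5+Sec14l3 under 0.5% and S100a8+S100a9 under 5% of UMIs. No doublet caller was run; leaving out the top 5% of mOSNs by UMIs was an alternative. Counts were summed per mouse and class (at least 10 cells) and tested with edgeR 4.0.16 (TMM, filterByExpr, quasi-likelihood, Benjamini-Hochberg adjustment over all genes tested) in R 4.3.3, checked on simulated data; DESeq2 1.42.0 was an alternative. SE is the log2 fold change over the root of F. Means over mice used exact permutation tests. Genes named from the class comparison were the 14 highest and 10 lowest log2 fold changes among called genes with 1 direction in all mice and at least 50 CPM, without receptors, genes of the gate, or the given markers. Named receptors were the 10 commonest of Cd36-positive cells and those with the highest shares among receptors of at least 10 mOSNs. The chromosome 10 receptors marked above as chosen after their values were seen are outside this rule. For the interaction, up to 8 called genes in each direction by log2 fold change were named. Each replicate was a separate mouse or pool of mice; the sorting day of each bulk sample was not given in the sources used here. Effects of alternatives are given in the closing section, though not of every alternative on every result.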

Additional observations from a re-analysis of the deposited data

Results flagged for a closer look

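In Cd36-positive mOSNs, 14 genes had a genotype effect (null against WT) that differed from the one in Cd36-zero mOSNs by the interaction test (edgeR's quasi-likelihood test), and 7 of the 14 had UMIs in 14 or fewer Cd36-positive cells. The interaction log2 fold changes were 9.18 for Atf3, 8.37 for Pcdh9, 5.89 for Sphkap, 5.57 for Olfr665, 5.34 for Bglap3, 3.47 for Tnnt1, 3.38 for Gm14744 and 3.35 for BC051076. It was -4.72 for Pf4. Another 5 genes, beyond the 8 highest, were named after their values were seen: Mup5 at 3.0, BC048546 at 2.06, Tmcc2 at 1.75, Coch at 1.39 and Cartpt at 0.71. The WT Cd36-positive sums of Atf3 and Pcdh9 were 0 in all 4 mice, as were the null Cd36-zero sums of Olfr665, so these 3 fitted sizes are no bound.

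For Sphkap, 51 of the 52 UMIs in Cd36-positive cells came from 1 cell of KO4, and for Bglap3, 49 of 55 from 1 cell of KO1. For Atf3, 18 of 23 UMIs came from 1 cell of KO4. Pf4 had 25 UMIs in 10 cells. Gm14744, BC051076 and Mup5 were high in the Cd36-zero cells of WT3 and WT4, at 3200 and 1540, 827 and 398, and 258 and 1170 CPM. Cartpt, a neuropeptide precursor, had 1483 UMIs in 237 of the 302 Cd36-positive cells; its means in them were 962 CPM in WT and 1690 CPM in null mice, against 967 and 1070 CPM in Cd36-zero cells, and it passed in 1 of 12 alternative analyses.

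Dio2 in the Cd36-positive cells of WT3 stood at 58.9 CPM, apart from 25.0 to 27.5 CPM in the other WT mice. It was 1 of 58 groups of 4 mice looked at, and chance marks about 1 group in 20.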

How the results depend on the processing

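The difference in the share of Cd36-positive mOSNs, null minus WT, was 0.229 percentage points in the main analysis. It was -0.434 when Cd36 at 1 UMI was enough. Without cells of 0.5% or more S100a8 and S100a9 UMIs it was -0.111, and without cells with an endothelial marker UMI -0.0253. The endothelial setting, like the sustentacular one, was chosen after seeing the data. With cells thinned to 1500 or 3000 UMIs and Cd36 at 1 UMI, the difference was -1.99 and -1.05. It was 0.729 with Cd36 at 3 UMIs or more (exact p 0.114, the lowest of these analyses), 0.244 without the top 5% of cells by UMIs and 0.278 without sustentacular-marker cells. Thinning to 3000 left out 2724 of 3814 WT and 2872 of 5319 null mOSNs. Leaving out 1 mouse gave -0.185 to 0.733, and -19.8 to -3.87 for the Cd36 level; no exact p in these analyses was under 0.05. For the class comparison 498 genes became 257 with Cd36-zero cells matched on UMIs, 178 with exactly 1 Cd36 UMI against 0, 125 without sustentacular-marker cells, 229 with DESeq2, and 390 to 492 without 1 mouse. Genotype calls in Cd36-positive cells were 8 with no filter, and 0 to 0 without 1 mouse; the interaction had 4 without the top 5% of cells by UMIs, 0 with DESeq2 and 10 to 17 without 1 mouse. In sorted mOSNs 26 became 43 with no filter, 216 with DESeq2 and 12 to 433 without 1 sample (433 without KO replicate 1). RiboTag RNA had 16 with DESeq2 and 0 to 17 without 1 sample (17 without KO replicate 3).

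Of 61 named and listed genes called in the class comparison, 900 of 1097 alternative values kept direction and call, 189 lost the call and 8 reversed: with exactly 1 Cd36 UMI, Olig1 -0.01, Sema3a -0.63, Plxna1 -0.08, Robo2 -0.02, Pcdh7 -0.23 and Stmn1 0.09; and Fos, -0.71 without endothelial-marker and -2.25 without sustentacular-marker cells. For the interaction, 94 of 165 kept both, 70 lost the call and 1 reversed (BC048546, -0.31 without the top 5% of cells). The cause was not tested.

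With the replicate number as a block, the share difference stayed 0.229 (exact p 1.0), the Cd36 level difference -13.2 (exact p 0.5), and the calls were 0 in Cd36-positive cells, 21 in sorted mOSNs and 0 in RiboTag RNA. Same-numbered samples correlated at -0.0309 to 0.597 in scRNA-seq, -0.159 to 0.00263 in RNA-seq and -0.457 to -0.166 in RiboTag, and different-numbered scRNA-seq samples at -0.654 to 0.647. Since not every pair was over 0.1 (WT3 with KO3 was at -0.0309), the numbers were not taken to pair the samples. Depth also limits the Cd36-positive sums, of which the smallest, in WT2, rests on 13 cells and 31988 UMIs.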

Other observations

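Klkb1, the gene of plasma prekallikrein, was chosen after its values were seen. It was at 49.3 ± 42.9 CPM (SD, n = 8) in Cd36-positive and 2.30 ± 0.855 CPM in Cd36-zero mOSNs, just under the 50 CPM required of a named gene, and higher in 8 of 8 mice without overlap. The values were 82.5, 100, 5.89 and 16.7 CPM in the Cd36-positive cells of WT1 to WT4 and 14.9, 115, 28.8 and 30.5 CPM in those of KO1 to KO4 (log2 fold change 3.88, SE 0.45, adjusted p = 1.95e-15, edgeR). In the annotation Klkb1 is followed on the same strand by Cyp4v3, 10084 bases away with 0 genes between. Tshz1 and Zfp407, both higher in Cd36-positive cells, likewise lie on 1 strand of 1 chromosome with 1 gene between them. Whether reads of such neighbors were assigned to the wrong gene was not tested.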
